A study of Mus musculus with 11 samples.

Results

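The genes described here are 9 members of the Sox family of transcription factors: Sox1, Sox2, Sox3, Sox4, Sox5, Sox9, Sox11, Sox12 and Sox21. They were chosen by name from the SoxB, SoxC, SoxD and SoxE subgroups, leaving out Sox6, Sox8 and Sox10. Sox13 and Sox14, of the same subgroups, are not among the 9 either. All 9 were found among the 39179 genes of the deposited count table. RNA had been sequenced from GFP-positive cells sorted from dissected V-SVZ tissue (ventricular-subventricular zone, a germinal layer lining the lateral ventricles) of CD1/Swiss mice at postnatal day 2. The 6 control libraries carried Gsh2-Cre, 1 floxed and 1 wild-type Zeb2 allele (Gsh2-Cre; Zeb2fl/wt), and the 5 mutant libraries carried Gsh2-Cre, 1 floxed and 1 null Zeb2 allele (Gsh2-Cre; Zeb2fl/ko). Both groups carried the RCE reporter, so GFP labels cells in which Gsh2-driven Cre had acted and their descendants, and the floxed allele of the controls would be deleted in the sorted cells too. The contrast is thus between loss of 1 and loss of both copies of Zeb2, which encodes a zinc finger repressor, and the ko allele of the mutants would be carried by the whole animal. Whether the libraries derive from different animals is not labelled, and p-values measure only the spread among them, which may be technical.

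Sox proteins bind DNA through a shared HMG box and differ in the rest of the protein. SoxB1 proteins (Sox1, Sox2, Sox3) are known for keeping neural cells in a progenitor state, and the SoxB2 protein Sox21 for opposing them. SoxC proteins (Sox4, Sox11, Sox12) act in young neurons. SoxD proteins (Sox5, Sox6, Sox13) lack an activation domain of their own and modulate other factors. SoxE proteins (Sox8, Sox9, Sox10) act in glial specification, with Sox9 in radial glia and astrocytes and Sox10 in oligodendrocyte lineage cells.

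The coding stretch at the start of the HMG box is shown for all 9 genes and for Sox6, because the family shares the HMG box. Each is 51 bases of the coding strand, 5′ to 3′, from the GENCODE M21 transcripts (GRCm38). Capitals mark the 27 bases that are the same in all 9 members.
Sox1, chr8:12396517-12396567, plus strand: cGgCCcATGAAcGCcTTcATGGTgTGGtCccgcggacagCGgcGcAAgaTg
Sox2, chr3:34650548-34650598, plus strand: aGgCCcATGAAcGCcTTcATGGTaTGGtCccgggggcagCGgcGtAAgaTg
Sox3, chrX:60892945-60892995, minus strand: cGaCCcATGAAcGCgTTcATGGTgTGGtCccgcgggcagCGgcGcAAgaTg
Sox21, chr14:118235558-118235608, minus strand: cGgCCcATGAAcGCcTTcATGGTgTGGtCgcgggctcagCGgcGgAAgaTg
Sox4, chr13:28952791-28952841, minus strand: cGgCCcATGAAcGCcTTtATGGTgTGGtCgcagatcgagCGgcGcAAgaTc
Sox11, chr12:27342208-27342258, minus strand: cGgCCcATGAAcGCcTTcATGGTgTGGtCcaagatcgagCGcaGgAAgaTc
Sox12, chr2:152397525-152397575, minus strand: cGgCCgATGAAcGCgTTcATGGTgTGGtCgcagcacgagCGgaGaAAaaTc
Sox5, chr6:143841223-143841273, minus strand: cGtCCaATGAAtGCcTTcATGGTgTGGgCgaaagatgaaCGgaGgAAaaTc
Sox9, chr11:112782903-112782953, plus strand: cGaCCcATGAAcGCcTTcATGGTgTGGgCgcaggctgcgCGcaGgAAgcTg
Sox6, chr7:115489712-115489762, minus strand: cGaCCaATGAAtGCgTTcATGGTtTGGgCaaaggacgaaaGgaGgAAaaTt
Sox1 and Sox3 differed at 3 of these bases, Sox1 and Sox2 at 5, Sox4 and Sox11 at 6, and Sox5 and Sox6 at 8, whereas Sox2 and Sox5 differed at 18. Over whole transcripts the longest identical stretch between any pair of these 10 genes was 48 bases, between Sox4 and Sox11, followed by 45 bases between Sox1 and Sox3. Neither stretch lies wholly within the bases shown, where both pairs differ. Reads that lie wholly within an identical stretch could belong to either gene, and how such reads were counted is not given. In the annotation 6 of the 9 members (Sox1, Sox2, Sox3, Sox4, Sox11 and Sox21) have a single exon.

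Library totals ranged from 6833981 to 13073505 counts. Zeb2 itself averaged 238 ± 46.7 CPM over the 6 controls and 303 ± 63.8 CPM over the 5 mutants (SD; CPM, each library's counts scaled to a fixed total with TMM factors), and a count over the whole gene includes exons outside the deleted part, so it does not check the genotype and the directions given here rest on the labels. Control libraries 1, 2, 3 and 6 held counts of Y-linked genes and the other 7 libraries, all 5 mutants among them, held 0. Sex and genotype are therefore partly confounded, and values among the female libraries (2 controls, 5 mutants) are given for the genes whose estimate moved most. The labelled tissue was checked with a neuroblast marker list, which had a summed level of 7735 to 10121 TPM among controls and 7388 to 9133 TPM among mutants (TPM, counts per kilobase of exon scaled to the same sum in each library). Among lists of other cell types, microglia and endothelial markers summed to at most 14.6 and 11.9 TPM in any library. Mural markers summed to at most 79.3 TPM and pallial glutamatergic markers to at most 93.8 TPM. Several other lists were higher. Markers of interneurons from the medial ganglionic eminence summed to 901 to 2182 TPM among controls and 8362 to 14621 TPM among mutants. Striatal projection neuron markers summed to 392 to 1288 and 202 to 340 TPM, in the same order. Neither of these ranges overlapped between groups. Oligodendrocyte precursor markers summed to 864 to 2316 and 684 to 1104 TPM, and astrocyte markers to 194 to 488 and 257 to 549 TPM. Mutant 5 stood apart, with 528 TPM of ependymal and choroid plexus markers, 517 TPM of it from the choroid plexus gene Ttr, against at most 14.0 TPM in every other library. Without mutant 5 again 0 of the Sox genes described here passed the test.

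None of the 9 Sox genes rose or fell past the test. Of 14104 genes tested 623 changed between genotypes (4.42%), and 0 of the 8 Sox genes that could be tested did (edgeR quasi-likelihood test, adjusted p below 0.05). With only 8 genes, a count of 0 does not set them apart from that share. The background was 2.68% for genes that rose and 1.74% for genes that fell. DESeq2 and limma-voom also called 0 of them, and 1 gene, Sox9, had an unadjusted p below 0.05. Sox3 was too low to be tested. For 4.91% of all genes the libraries of the groups did not overlap, with 2.89% higher and 2.03% lower in the mutants. This held for 0 of the 8 Sox genes, which again does not set them apart. The estimates were higher for 4 genes (Sox1, Sox4, Sox11, Sox12) and lower for 4 (Sox2, Sox5, Sox9, Sox21), with a median log2 fold change of 0.03 against -0.02 over all genes tested. By contrast Sox6, the SoxD partner of Sox5, had the smallest p of all 14104 genes. In bulk libraries fewer cells of a type and less RNA per cell cannot be told apart.

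**Figure D1:**
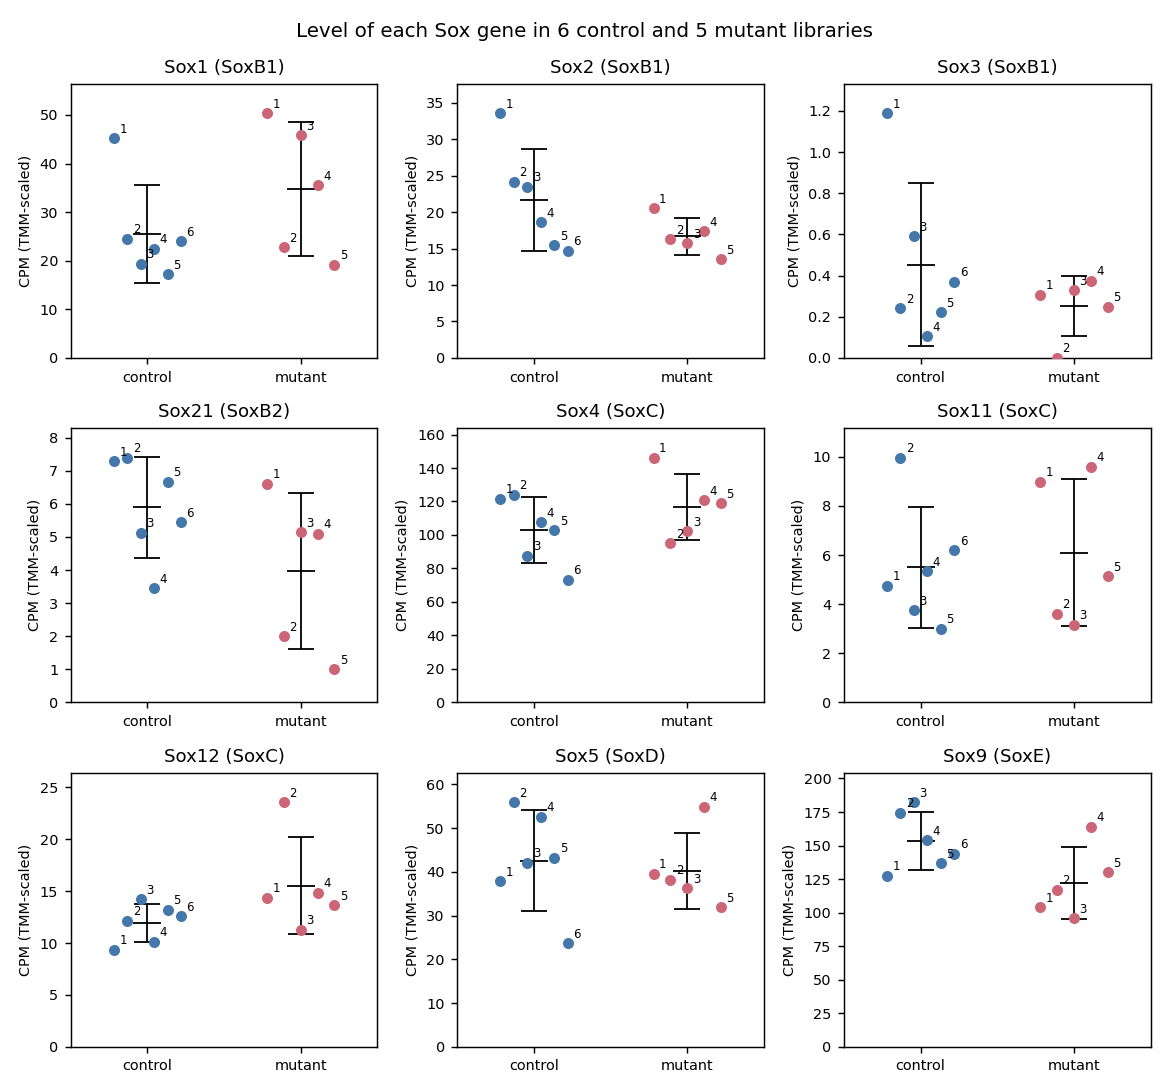
TMM-scaled CPM (vertical axes, linear from 0) of each of the 9 Sox genes in 6 control (blue) and 5 mutant (red) libraries; numbers are replicate numbers, the black mark is the mean and the bars are ± 1 SD. In every panel the control and mutant points overlap, and Sox3 lies at or under 1.19 CPM.

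The precision behind this differed between genes. For 6 of the 8 tested genes the 95% interval of the difference lay within a 2-fold change in either direction, and it reached beyond for Sox1 and Sox21. Given each gene's standard error, an estimate of at least 1.46-fold for Sox9 and 1.48-fold for Sox4 would have passed the threshold. For Sox11 it was 2.68-fold and for Sox21 3.00-fold. A smaller change in these genes was not detectable with these libraries.

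**Figure D2:**
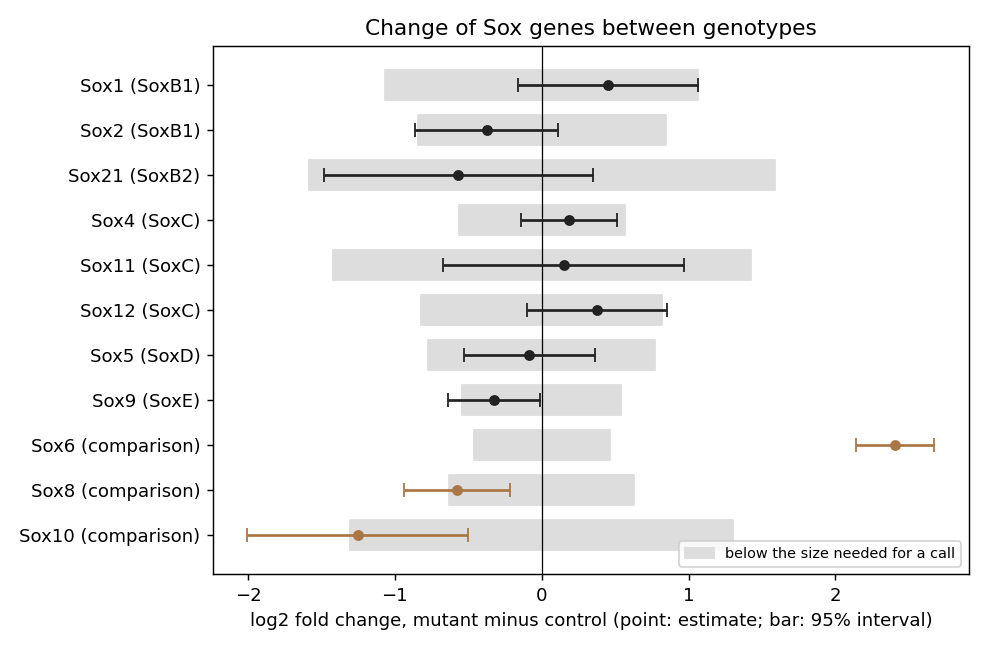
Log2 fold change, mutant minus control, of the 8 tested Sox genes (black) and of Sox6, Sox8 and Sox10 for comparison (brown); points are estimates, bars 95% intervals, and the grey band is the size of estimate that would not have passed the threshold at that gene's standard error. Each black point lies inside its band, and Sox6 lies at 2.40.

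Among the SoxB1 genes, Sox1 (chromosome 8, 12395295 to 12400126, plus strand, GRCm38) ranged in the controls from 17.2 CPM over a median of 23.3 to 45.2 CPM. The mutant libraries 1 to 5 held 50.4, 22.8, 45.8, 35.5 and 19.2 CPM. Mutants 1 and 3 lay above every control, while mutants 2 and 5 lay among the lower controls. The control mean was 25.5 ± 10.1 CPM (SD, n = 6) and the mutant mean 34.7 ± 13.7 CPM (SD, n = 5), a log2 fold change of 0.45 (95% interval -0.16 to 1.07, adjusted p = 0.461). Control 1 alone stood at 45.2 CPM, with the other controls at or under 24.5 CPM, and without it the log2 fold change was 0.69 (adjusted p = 0.197). Without mutant 1 it was 0.28 (adjusted p = 0.737), and without mutant 3 it was 0.33 (adjusted p = 0.697). Among female libraries it was 0.81 (95% interval -0.03 to 1.65, adjusted p = 0.439). Sox1 lies within an intron of the longer transcript Sox1ot on the same strand, with no shared exon bases. The mean of Sox1ot was 36.9 ± 10.7 CPM over the 6 controls and 28.1 ± 2.53 CPM over the 5 mutants (SD).

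Sox2 (chromosome 3, 34650405 to 34652461, plus strand), the best known stem cell factor of the family, ranged from 14.7 CPM over a median of 21.0 to 33.6 CPM in the controls. In mutants 1 to 5 it stood at 20.5, 16.3, 15.7, 17.4 and 13.5 CPM. All 5 mutants lay below the control mean of 21.7 ± 7.06 CPM (SD, n = 6), yet 4 of the 5 lay within the control range. The log2 fold change was -0.37 (95% interval -0.86 to 0.11, adjusted p = 0.439). Controls 1, 2 and 3, at 33.6, 24.2 and 23.5 CPM, were the libraries above every mutant, and all 3 held Y-linked counts. Control 6, which also held Y-linked counts, was the lowest control at 14.7 CPM. Controls 4 and 5, the female controls, stood at 18.6 and 15.4 CPM, and among female libraries the log2 fold change was -0.02 (95% interval -0.60 to 0.56, adjusted p = 0.986). Sex and genotype cannot be told apart among the libraries with Y-linked counts, all of which are controls. Of 8 mitotic markers 3 fell (Cdk1, Ccnb1, Kif2c) and 5 did not pass, where 1.74% of all genes fell, and their summed level was 214 to 375 TPM among controls and 132 to 212 TPM among mutants. Their part in the Sox2 estimate was not tested.

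Sox3, on the X chromosome (60891366 to 60893430, minus strand), was close to absent. It held between 0 and 8 counts per library, from 0.105 to 1.19 CPM in the controls and up to 0.375 CPM in the mutants. Mutant 2 had no counts, which allows up to 0.301 CPM at a floor of 3 counts. Sox3 did not pass the filter on low counts, and without that filter its adjusted p was 0.75.

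The SoxB2 gene Sox21 (chromosome 14, 118233232 to 118237030, minus strand) was also low. Its controls ranged from 3.45 CPM over a median of 6.06 to 7.40 CPM. Mutants 1 to 5 held 6.61, 2.01, 5.14, 5.10 and 0.997 CPM. Mutants 2 and 5 lay below every control and the other 3 lay within the control range, and with as few as 12 counts in a library the interval was wide (log2 fold change -0.57, 95% interval -1.48 to 0.35, adjusted p = 0.548). The estimate was -0.34 among female libraries (95% interval -1.79 to 1.11) and -0.32 without mutant 5. Exons of Gm4675 on the opposite strand overlap 18.8% of the Sox21 exon bases, so its counts are uncertain.

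Among the SoxC genes, which are known for driving neuronal genes such as Tubb3 in newborn neurons, Sox4 was the highest. Sox4 (chromosome 13, 28948919 to 28953713, minus strand) ranged from 73.2 CPM over a median of 105 to 124 CPM in the controls. Mutant libraries 1 to 5 stood at 146, 95.2, 102, 121 and 119 CPM. Mutant 1 lay above every control, controls 3 and 6 lay below every mutant, and the rest overlapped. The log2 fold change was 0.18 (95% interval -0.14 to 0.51, adjusted p = 0.596), the narrowest bound on an increase among the SoxC genes. In the annotation the opposite-strand gene Gm26735, with 0 counts in every library, overlaps 54.6% of the Sox4 exon bases. How reads in overlapping genes were assigned is not given, so the level of Sox4 is uncertain.

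Sox11 (chromosome 12, 27334264 to 27342574, minus strand) was low in every library. Its controls ranged from 3.00 CPM over a median of 5.05 to 9.97 CPM. In mutants 1 to 5 it stood at 8.99, 3.61, 3.17, 9.60 and 5.15 CPM, all within the control range (log2 fold change 0.15, 95% interval -0.67 to 0.97, adjusted p = 0.891). Without mutant 1 or mutant 4 the estimate was below 0, at -0.03 and -0.072. Per length, Sox11 stood at 2.20 ± 1.07 TPM (SD, n = 6) in the controls, and Sox4 was 20.5 to 59.4 times as high there and 21.8 to 55.9 times in the mutants. At its mean TPM over all libraries Sox11 lay above only 10.7% of the tested genes, by these counts. The list of proneural and early neuronal genes linked to SoxC summed to 8209 TPM or more in every library. That is a sum over 15 genes and cannot be set against the level of 1 gene. The counting rules and the read length are not given, so whether Sox11 or Sox2, each a single exon, was undercounted is not known, and their levels and places in the order of genes are uncertain.

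Sox12 (chromosome 2, 152393611 to 152398063, minus strand), the least studied SoxC gene, ranged from 9.37 CPM over a median of 12.4 to 14.2 CPM in the controls. Mutants 1 to 5 held 14.4, 23.6, 11.3, 14.8 and 13.6 CPM. Mutants 1, 2 and 4 lay above every control, with mutant 2 far above the rest, and 4 of the 5 mutants lay above the control mean. The log2 fold change was 0.38 (95% interval -0.10 to 0.85, adjusted p = 0.415), and 0.18 without mutant 2 (adjusted p = 0.728).

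The SoxD gene Sox5 (chromosome 6, 143828425 to 144781977, minus strand) ranged from 23.7 CPM over a median of 42.7 to 56.0 CPM in the controls. Mutant libraries 1 to 5 stood at 39.6, 38.2, 36.3, 54.9 and 32.0 CPM, each within the control range. The log2 fold change was -0.08 (95% interval -0.53 to 0.36, adjusted p = 0.889). Control 6 was the lowest library, and without it the estimate was -0.21 (adjusted p = 0.564). Sox6, its closest relative in the HMG box sequences shown above, averaged 108 ± 10.2 CPM over the 6 controls and 571 ± 111 CPM over the 5 mutants (SD; log2 fold change 2.40, 95% interval 2.14 to 2.67, adjusted p = 1.02e-07). The count ratio of Sox6 to Sox5 lay between 2.08 and 4.52 among controls and between 10.03 and 20.8 among mutants, with no overlap. This ratio was not tested, since Sox6 was known beforehand to change. Markers of interneurons from the medial ganglionic eminence, cells known to express Sox6, moved with it: Lhx6, Sst, Npy and Nkx2-1 rose past the edgeR test. Their part in the Sox6 difference was not tested.

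The SoxE gene Sox9 (chromosome 11, 112782224 to 112787760, plus strand) was the highest member per length and had the smallest p of the 8. Its controls ranged from 127 CPM over a median of 149 to 182 CPM. In mutants 1 to 5 it stood at 104, 117, 95.7, 164 and 130 CPM. Mutants 1, 2 and 3 lay below every control, while mutant 4 lay above 4 of the 6 controls. The mean was 153 ± 21.6 CPM (SD, n = 6) against 122 ± 26.8 CPM (SD, n = 5), a log2 fold change of -0.33 (SE 0.146, unadjusted p = 0.0415, adjusted p = 0.263 with edgeR). The 95% interval, -0.64 to -0.01, is not adjusted for the number of genes. With 1 library left out the estimate ranged from -0.46 without mutant 4 (adjusted p = 0.1) to -0.25 without mutant 3 (adjusted p = 0.48). Among female libraries it was -0.24 (95% interval -0.70 to 0.21, adjusted p = 0.708), and with the Y-linked covariate -0.23 (adjusted p = 0.757). Of 9 radial glia markers 2 rose (Hopx, Pax6) and 2 fell (Vim, Ednrb), and of 8 astrocyte markers 1 fell (Slc4a4), where 2.68% of all genes rose and 1.74% fell. Their part in the Sox9 estimate was not tested. The other SoxE genes had lower estimates too, Sox8 at -0.58 (95% interval -0.94 to -0.21, adjusted p = 0.0724) and Sox10 at -1.25 (95% interval -2.003 to -0.50, adjusted p = 0.0593), and neither passed. Among female libraries Sox10 had an estimate of -0.44 (95% interval -1.18 to 0.30, adjusted p = 0.676) and Sox8 one of -0.48 (95% interval -0.997 to 0.03, adjusted p = 0.449). Sox10 stood in control 6 at 40.6 CPM against at most 20.2 CPM in the other controls, a library whose oligodendrocyte precursor list summed to 2316 TPM against at most 1344 TPM in the other controls and 684 to 1104 TPM in the mutants. Of the 6 tested genes of that list 1 fell (Gpr17), and its part in the SoxE values was not tested. Without control 6 Sox10 had a log2 fold change of -0.86 (adjusted p = 0.0865), Sox8 one of -0.47 (adjusted p = 0.118) and Sox9 one of -0.35 (adjusted p = 0.246).

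Per length the order of the members in the controls was Sox9, Sox4, Sox2, Sox1, Sox5, Sox12, Sox21, Sox11 and Sox3. Sox9 stood at 123 ± 21.4 TPM and Sox4 at 70.7 ± 14.1 TPM (SD, n = 6), with no overlap of their ranges. The ranges of every other pair of neighbours overlapped, although Sox4 exceeded Sox2, Sox2 exceeded Sox1 and Sox1 exceeded Sox5 within each of the 6 libraries. Sox5 exceeded Sox12 in 4 of 6 libraries, so these neighbours did not differ beyond their spread. In the mutants the order was the same except that Sox12, at 11.5 ± 3.20 TPM (SD, n = 5), came before Sox5, at 9.33 ± 2.38 TPM. Sox9 exceeded Sox4 in 4 of the 5 mutant libraries, with means of 97.8 ± 22.2 TPM and 81.0 ± 16.9 TPM (SD, n = 5), and their ranges overlapped there. Sox2 and Sox1 also overlapped, with Sox2 higher in 3 of the 5 mutants and in 6 of the 6 controls. These changes of order were not tested.

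Summed over the members of each subgroup, the ranges of the groups overlapped for each of the 5 sums. The SoxB2, SoxD and SoxE sums hold only Sox21, Sox5 and Sox9. Genes that are not members, Sox6 among them, are left out of these sums. SoxB1 genes summed to 52.4 ± 15.6 TPM over the 6 controls and 51.8 ± 15.9 TPM over the 5 mutants (SD). SoxC genes summed to 81.8 ± 14.4 TPM and 94.99 ± 17.3 TPM. All 9 members together summed to 224 to 332 TPM among controls and 220 to 311 TPM among mutants. Sox6 made up 4.36% to 5.68% of the summed TPM of the 20 Sox genes of the table among controls and 22.1% to 32.96% among mutants, while the 9 members made up 44.8% to 62.5% and 44.5% to 54.9%. The sums are descriptions with no test.

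**Figure D3:**
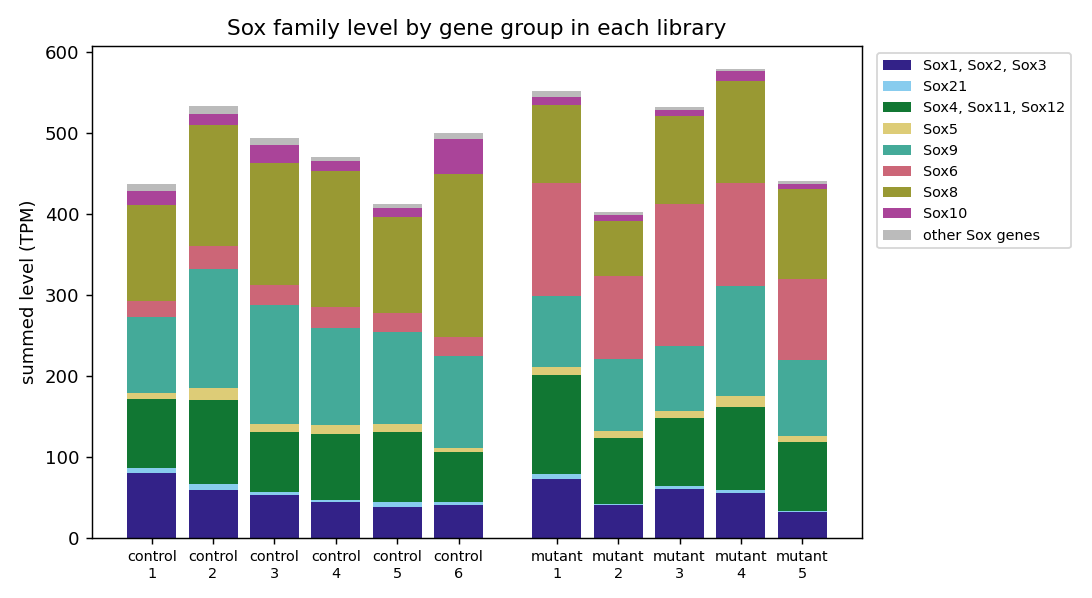
Summed level in TPM of the Sox genes in each library (bars, stacked from 0), by subgroup for the 9 members and singly for Sox6, Sox8 and Sox10; other Sox genes are in grey. The Sox6 segment is between 19.1 and 27.6 TPM in the 6 controls and between 99.9 and 175 TPM in the 5 mutants, and the segments of the 9 members overlap in height between groups.

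Genes linked to these factors were taken from lists of partners and targets. Of 8 tested POU factors, which bind DNA beside SoxB1 proteins, 0 passed the edgeR test (median log2 fold change -0.07, against -0.02 over all genes). Over all genes 4.42% passed, and with only 8 POU factors a count of 0 does not set them apart from that share. The highest of them, Pou3f3, stood at 72.2 ± 7.25 CPM (SD, n = 6) and 62.7 ± 13.7 CPM (SD, n = 5), with an adjusted p of 0.546. Among 15 progenitor genes linked to SoxB1, Pax6, a transcription factor gene of progenitors and of some olfactory bulb interneurons, rose by 1.21 on the log2 scale and 14 did not pass (median -0.24). Among 12 tested proneural and early neuronal genes linked to SoxC, Neurod1, a proneural factor gene, rose by 2.07 and 11 did not pass (median 0.06). Of 8 tested partners and targets of SoxD factors, Bcl11b, a gene of deep-layer cortical and striatal projection neurons, fell by 1.35 and 7 did not pass (median -0.25). Of 8 striatal projection neuron markers, Bcl11b among them, 6 fell and 1 rose (Drd1), where 1.74% of all genes fell and 2.68% rose. The part of striatal projection neurons in the Bcl11b difference was not tested.

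On the gliogenic list linked to SoxE factors 2 of 13 genes rose and 11 did not pass, while 2.68% of all genes rose. The median of the list was -0.37, against -0.02 over all genes. The 2 were Nfib and Nfix, genes of nuclear factor I transcription factors. Nfib went from 412 ± 115 CPM (SD, n = 6) to 950 ± 164 CPM (SD, n = 5), a log2 fold change of 1.20 (SE 0.183, adjusted p = 0.00109). Nfix went from 366 ± 50.4 to 526 ± 45.0 CPM, a log2 fold change of 0.52 (SE 0.107, adjusted p = 0.01).

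For the member with the highest CPM in each subgroup, the genes that varied most like it across libraries were found after the group means were subtracted, over 11 libraries, and being the highest of all tested genes their r values are descriptions. For Sox1 they were Ube2ql1, Usp7 and R74862 (r = 0.92, 0.90 and 0.88), and for Sox21 Rpl10, Tacc1 and Bmi1 (0.95, 0.93 and 0.93). For Sox4 they were Nvl, Rnaset2a and Nefm (0.93, 0.92 and 0.92), and for Sox5 Gm14897, Etaa1 and Srsf6 (0.94, 0.94 and 0.93). For Sox9 they were Gm12222, Stk32a and Gm11627 (0.91, 0.91 and 0.89).

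Promoter windows of 300 bases around a RefSeq start (GRCm38.p6) were at hand for 7 of the 9 members. These starts are not always those of the gene models given above. The windows of Sox2 (34649745 to 34650044) and Sox11 (27342669 to 27342968) lie outside the gene coordinates printed here. The window of Sox5 (143947057 to 143947356) lies inside its gene, away from both ends. The half-site CACCT, the core of the sequence bound by ZEB proteins, was searched on both strands. It occurred once in each of 4 windows, those of Sox1, Sox4, Sox11 and Sox12, and did not occur in those of Sox2, Sox5 and Sox21. It was present in 51.9% of all such windows. Of the 6 windows of Sox6, 3 held it. A match is a description of the letters and not a site.

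The estimates were set beside those of the alternative settings. The lowest adjusted p of any of the 8 genes over all of them was 0.1, for Sox9 without mutant 4. Sox2 moved nearest to 0 and Sox1 and Sox11 farthest from it when sex was taken into account, with Sox11 at 0.56 among female libraries (95% interval -0.65 to 1.76).

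**Figure D4:**
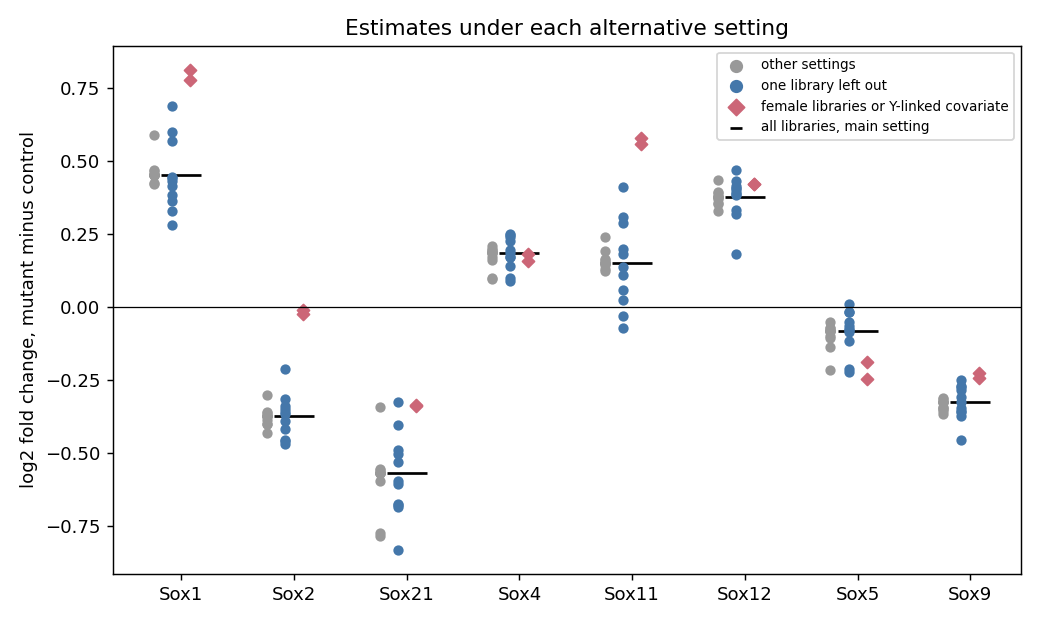
Log2 fold change, mutant minus control (vertical axis), of the 8 tested Sox genes under the main setting (black line), with 1 library left out (blue), among female libraries or with a Y-linked covariate (red), and under the other settings (grey). The red points of Sox2 lie near 0, at -0.02 and -0.01, and those of Sox1 at 0.81 and 0.78.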

How the data were processed

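The authors deposited unnormalised counts for 39179 Ensembl genes and 11 libraries. The submitters' processing notes name TopHat2 2.0.13 and featureCounts 1.4.6, with mm10 and GRCm38 as builds. Not given in the sources used here are the annotation release, the strand setting, the read length and the treatment of reads that match several genes. Symbols, gene models and exon lengths came from GENCODE M21 (GRCm38), and 37607 identifiers had a symbol. Libraries were grouped by their labelled genotype.

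The main test was the quasi-likelihood test of edgeR 4.0.16 (R 4.3.3) after filterByExpr and TMM scaling, with robust estimation. P-values were Benjamini-Hochberg adjusted over the 14104 genes kept, with a threshold of 0.05, and every adjusted p in the text is from this test unless another tool is named. The standard error was derived from the F statistic, and the 95% interval from it. CPM was computed from the deposited counts with TMM factors, and TPM from counts per kilobase of exon. The 9 genes and all lists were chosen with earlier results of these data known. From each list of linked genes, the rule named up to 3 genes with the smallest adjusted p past the threshold, or the gene with the highest level where none passed. Sox6, Sox8 and Sox10 were named for comparison. Genes most like a member were the 3 with the highest Pearson correlation of log2(CPM + 1), after subtraction of group means, for the member with the highest CPM in each subgroup. The test was checked on simulated counts. Each library counted as 1 sample. Any pair within a group had a chi-square of 13.7 or more per degree of freedom, so libraries differed beyond counting error. That does not show whether they come from different animals. Alternatives were other scalings (RLE, upper quartile, library totals), no filter and a stricter filter, DESeq2 1.42.0, limma-voom (limma 3.58.1), no robust estimation, adjusted p below 0.01 or 0.1, each library left out in turn, the replicate number as a block, a Y-linked covariate, female libraries only, and leaving out the gene Gm42418. Leaving out control 6 and mutant 5 together was chosen after seeing the data. Count floors and intervals on counts cover counting error only. The list of interneuron markers is given in part, since 1 item is not reported here.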

Additional observations from a re-analysis of the deposited data

Results flagged for a closer look

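Sox1 in control 1 stood at 45.2 CPM, the highest of 6 controls. Its distance to the next control was a larger share of the group's range than Dixon's 95% critical value allows. Of 18 groups of libraries examined in this way (9 genes in 2 genotypes) this was the only one so marked, and chance marks about 1 in 20.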

How the results depend on the processing

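The number of Sox genes past the threshold was 0 under all 26 alternatives, thresholds of 0.01 and 0.1 and the limma-voom and DESeq2 fits included. The direction of the 8 estimates was kept in every alternative except 3: Sox5 was at 0.011 without control 2, and Sox11 at -0.03 and -0.072 without mutant 1 and mutant 4. With 1 library left out Sox5 ranged from -0.22 to 0.011 and Sox11 from -0.072 to 0.41. The cause was not tested. Over all genes 623 changed, with 286 and 976 at thresholds of 0.01 and 0.1, 1211 with DESeq2, 186 with the Y-linked covariate, 218 among female libraries and 412 with the replicate block, which called 0 of the Sox genes. Leaving out 1 library gave 418 to 656. The replicate numbers of the titles left no visible pairing in the counts: the correlation of same-numbered deviations was -0.18 to 0.02. For 1 of 5 numbers the control correlated best with the mutant of its own number. Whether same-numbered libraries were prepared together is not settled by these correlations. The scalings moved the median log2 fold change of all genes by less than 0.1. Depth limits Sox3 (at most 8 counts), Sox11 and Sox21.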

Other observations

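Sox13, the SoxD gene that is neither Sox5 nor Sox6, averaged 7.47 ± 2.91 CPM over the 6 controls and 2.60 ± 1.61 CPM over the 5 mutants (SD), with 0 counts in mutant 5 and an adjusted p of 0.212 with edgeR (log2 fold change -1.52, 95% interval -2.84 to -0.20). It was chosen after its values were seen. The 3 SoxD genes thus had estimates of -1.52, -0.08 and 2.40. Sox8 was the highest Sox gene per length in the controls, at 151 ± 31.3 TPM against 123 ± 21.4 TPM for Sox9, and Sox6 had the highest mean in the mutants, at 129 ± 31.0 TPM. Sox6 had the smallest p of all genes tested with all 11 libraries, and ranked 12 among female libraries and 3 without control 6.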
